A study of Mus musculus with 18 samples.

Results

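The comparison described here set daily prednisone against vehicle in female mice, over 6 RNA-seq libraries of isolated quadriceps myofibers, 3 per group and 1 per mouse. A gene was a member of the comparison if it had 10 or more counts in at least 3 of these 6 libraries, which gave 12987 genes of 43430 in the count table. The series holds 18 libraries, from male and female C57BL/6 mice (C57BL/6J in the methods) on vehicle, weekly prednisone or daily prednisone. Its question was how the dosing interval and sex shape the response of muscle to a glucocorticoid. The daily group received prednisone at 1 mg/kg by intraperitoneal injection at 7 am each day for 4 weeks from 10 weeks of age, and the vehicle group received DMSO diluted in PBS on the same schedule. All mice were wild type. Vehicle and prednisone were injected at the same hour, and the methods place the force measurements at 9 am, directly before the mice were killed. The time from the last daily dose to harvest is not stated for the mice whose RNA was sequenced. Myofibers were what a strainer held back after collagenase digestion of the muscle, so fragments of fat, vessel, nerve and connective tissue can stay with them.

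Prednisone is converted in tissue to prednisolone, which binds the glucocorticoid receptor, a transcription factor that enters the nucleus and switches target genes on or off. In skeletal muscle the receptor is known for raising the atrophy ligases, for resisting insulin and IGF1 signalling, and for changing the choice between glucose and fatty acids as fuel. Glucocorticoids also set the phase of the circadian clock in peripheral tissues. That clock is a loop in which CLOCK or NPAS2 pairs with BMAL1 (Arntl) to switch on the period, cryptochrome and REV-ERB genes, whose proteins then switch the activators off.

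Total counts were between 12961619 and 14686654 in the 3 daily libraries and between 10506661 and 12189113 in the 3 vehicle libraries, so every daily library was the deeper. Genes of the mitochondrial genome took 11.7% to 18.3% of the counts of the daily libraries and 21.1% to 26.3% of those of the vehicle libraries. The 10 genes that define a myofiber (Acta1, Ckm, Mb and others) were present in all 6 libraries, with summed levels of 118800 to 191400 CPM on daily prednisone and 126800 to 187700 CPM on vehicle. CPM stands for counts scaled by the effective size of each library. Daily replicate 1 lay apart from the other libraries on the second principal component, at -48.3, and held the least RNA of immediate early genes, with 2291 CPM summed over 18 genes against 5302 to 8304 CPM in the others. Vehicle replicate 3 differed from the other vehicle libraries in clock and atrophy genes, as given beside those results. Of the 12987 members 12971 entered the test, together with 625 genes that the other groups express.

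Daily prednisone changed 52 of 13596 tested genes in females at an adjusted p under 0.05 in edgeR's quasi-likelihood test, which is 0.382% of those tested. Of these, 18 rose (0.132%) and 34 fell (0.25%). All 52 were members (0.401% of the members tested), and for all 52 the 3 daily libraries lay entirely beyond the 3 vehicle libraries, as they did for 23.1% of all tested genes. The largest rise was Lep, at 4.95 on the log2 scale, and the largest fall was Npas2, at -2.46. Lep was a member only through its daily libraries, where it was high. Only 12 of the 52 moved by more than 1 on the log2 scale, and their adjusted p-values lay between 0.0429 and 0.0483, close to the threshold. At an unadjusted p under 0.05 there were 2354 genes, or 17.3%, with 1312 higher and 1042 lower. DESeq2 gave 526 genes of 13327, or 3.95%, all 52 among them. Leaving out daily replicate 2 or 3, vehicle replicate 2, or any of 4 male libraries left no gene below the threshold, and leaving out vehicle replicate 1 left Rbbp6 alone, whereas leaving out daily replicate 1 gave 173 genes and leaving out vehicle replicate 3 gave 55. Without male vehicle replicate 3, which enters only through the shared estimate of spread, there were 20.

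**Figure D1:**
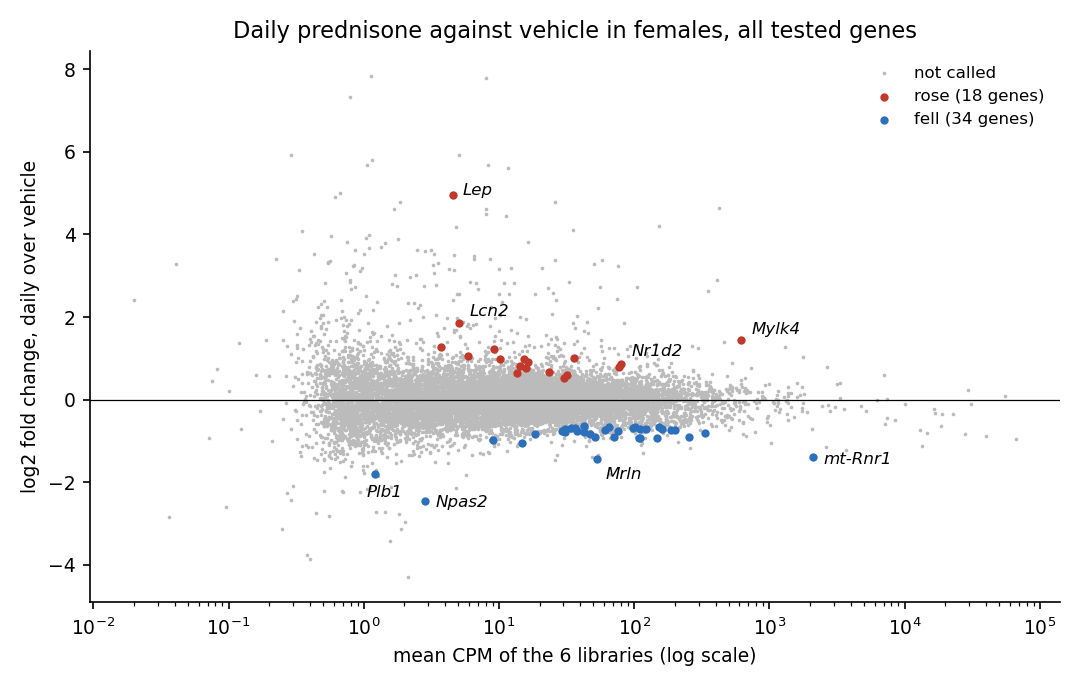
Each point is 1 of the 13596 tested genes, with its mean CPM over the 6 libraries on a log axis and its log2 fold change of daily prednisone over vehicle in females. The 18 genes that rose (red) and the 34 that fell (blue) spread over a wide range of levels, with Lep at 4.95 and Npas2 at -2.46. Lep was a member only through its daily libraries.

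The circadian clock held the largest fall and 1 of the rises. Npas2, the partner of BMAL1 that can stand in for CLOCK, was at 1.38, 0.566 and 0.725 CPM in the daily libraries and at 5.76, 4.24 and 4.48 CPM in the vehicle libraries. It lay lower in every daily library, and it fell by 2.46 on the log2 scale (SE 0.38, adjusted p = 0.0429). Nr1d2, which encodes the repressor REV-ERB beta, was at 96.4, 95.3 and 117 CPM on daily prednisone and at 46.2, 54.8 and 68.8 CPM on vehicle. It rose by 0.86 (SE 0.16, adjusted p = 0.0429), again with no overlap between the groups. Npas2 lies on chromosome 1 at 39193731 to 39363236 and Nr1d2 on chromosome 14 at 18204054 to 18239127, both on mm10.

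Among the 10 clock repressors that could be tested, Nr1d2 was the only one called by edgeR, while DESeq2 called 4 (background 2.15% for rises in DESeq2), Nr1d2, Per3, Per2 and Ciart. Their median log2 fold change was 0.54, against 0.01 over all tested genes. Per3 was at 27.0, 36.3 and 36.7 CPM on daily prednisone and at 4.32, 8.69 and 20.8 CPM on vehicle, a difference of 1.57 (SE 0.37, adjusted p = 0.0709). Per2 was at 11.8, 37.2 and 26.3 CPM against 3.22, 3.59 and 12.7 CPM, where daily replicate 1 lay below vehicle replicate 3. Both encode period proteins, which enter the nucleus to silence CLOCK and BMAL1. Ciart, a further repressor of that pair, was at 7.30, 10.6 and 9.24 CPM against 1.52, 3.37 and 3.04 CPM, a difference of 1.78 (SE 0.46, adjusted p = 0.0805) with every daily library the higher. Per1, a period gene that the glucocorticoid receptor is known to induce, was at 130, 160 and 161 CPM against 85.02, 97.3 and 118 CPM, and its difference of 0.58 (SE 0.36) had an adjusted p of 0.423. Cry2 differed by 0.34 and Cry1 by 0.28, Bhlhe41 by 0.50 and Bhlhe40 by -0.28, and Nr1d1, the gene for REV-ERB alpha, by -0.50, all with adjusted p-values of 0.239 or more.

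Of the 5 clock activators tested, Npas2 alone was called (background 0.25% for falls). Arntl was at 31.9, 12.5 and 12.02 CPM on daily prednisone and at 52.5, 47.8 and 20.1 CPM on vehicle, a difference of -1.10 (SE 0.38, adjusted p = 0.152). The groups overlapped for Arntl, because daily replicate 1 was above vehicle replicate 3. Clock differed by -0.13 and the receptor gene Rora, an activator of Arntl, by 0.45, with adjusted p-values of 0.168 or more. Rorb did not pass the filter on low counts. Among the output factors, which carry the rhythm to other genes through D-box sequences, Dbp was at 74.0, 56.4 and 75.2 CPM on daily prednisone but spread from 4.06 and 12.2 to 50.3 CPM on vehicle. Its difference of 1.62 had a standard error of 0.63 and an adjusted p of 0.197. Nfil3, a repressor at the same D-box sequences, was at 33.3, 24.0 and 25.9 CPM against 88.3, 64.4 and 27.7 CPM, a difference of -1.12 (adjusted p = 0.155). Tef and Hlf differed by 0.47 and 0.97 with adjusted p-values of 0.131 and 0.124.

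Vehicle replicate 3 was nearer to the daily libraries than the other vehicle mice were for Dbp, Per2, Per3, Arntl and Nfil3. Without it the median of the clock repressors was 0.77 and that of the 4 output factors 1.01, compared with 0.54 and 0.72 with all libraries.

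**Figure D2:**
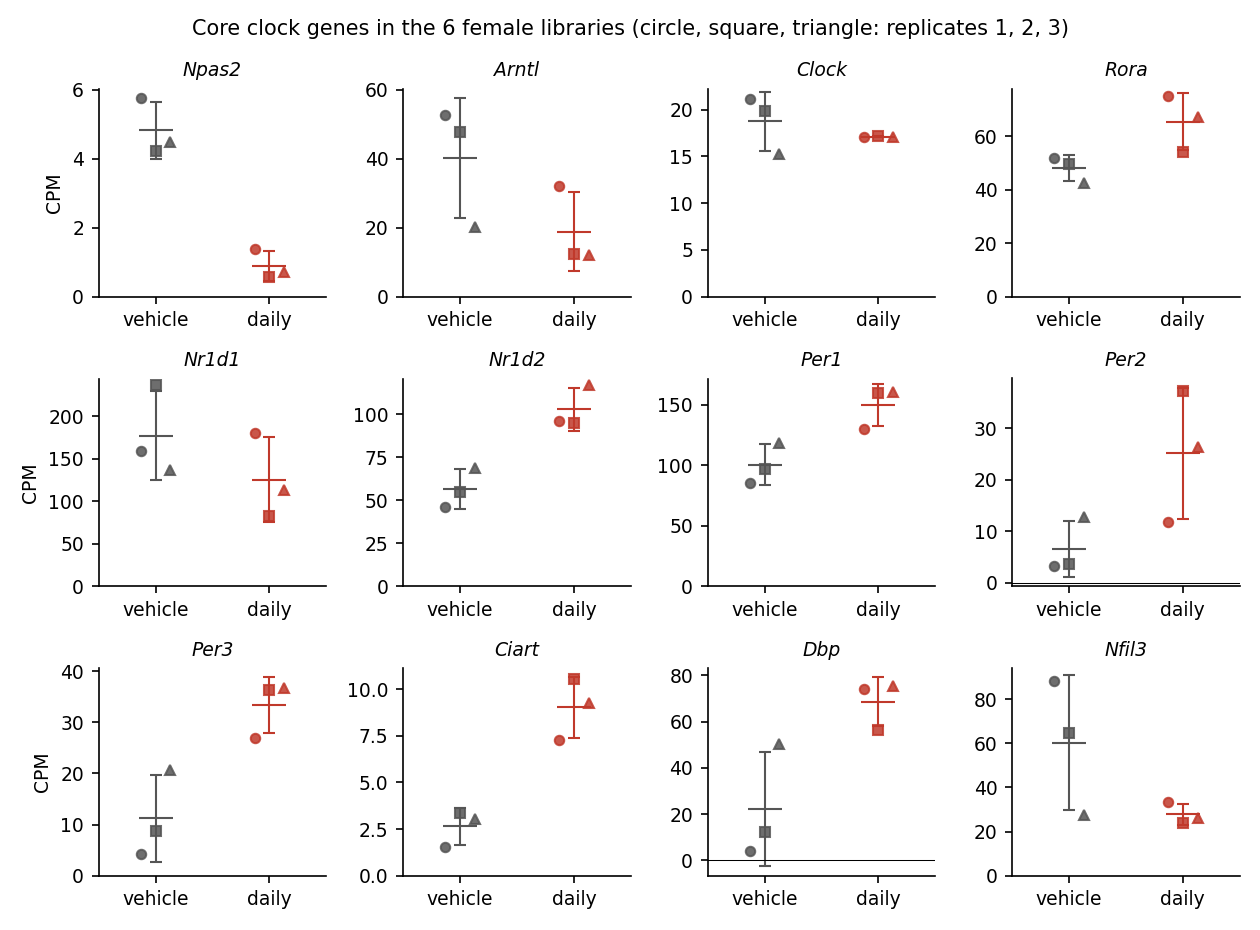
CPM of 12 clock genes in the 3 vehicle (grey) and 3 daily (red) female libraries, with the group mean and SD as bars. Npas2 lay lower and Rora, Nr1d2, Per1, Per3, Ciart and Dbp lay higher in every daily library. Vehicle replicate 3 (triangle) stood nearest to the daily libraries for Dbp at 50.3 CPM.

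The promoters of clock genes carry short sequences through which the loop acts, so those of the genes above are shown. Windows of 300 bases around the transcription start come from RefSeq on GRCm38.p6, written 5′ to 3′ on the strand of the gene, and 17 of the 20 listed clock genes had one. The patterns below were searched on both strands and are in capitals: the E-box CACGTG bound by CLOCK and BMAL1, the D-box TTATGNAA, the ROR element TAGGTCA shared by ROR and REV-ERB proteins, and the glucocorticoid element ACANNNTGT. Patterns do not overlap in the windows printed. Ciart and Per3 are given for their E-boxes and D-boxes, Nfil3 and the second Arntl promoter for their ROR element, and Npas2 and Nr1d2 because these 2 genes were called.
Ciart, chr3:95882179-95882478, minus strand: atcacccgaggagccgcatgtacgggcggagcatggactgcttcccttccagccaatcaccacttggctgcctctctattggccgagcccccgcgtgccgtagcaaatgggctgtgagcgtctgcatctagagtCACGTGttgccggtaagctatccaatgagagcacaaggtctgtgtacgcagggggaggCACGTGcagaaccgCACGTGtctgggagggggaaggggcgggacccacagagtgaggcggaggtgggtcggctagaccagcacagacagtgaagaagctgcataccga
Per3, chr4:151044616-151044915, minus strand: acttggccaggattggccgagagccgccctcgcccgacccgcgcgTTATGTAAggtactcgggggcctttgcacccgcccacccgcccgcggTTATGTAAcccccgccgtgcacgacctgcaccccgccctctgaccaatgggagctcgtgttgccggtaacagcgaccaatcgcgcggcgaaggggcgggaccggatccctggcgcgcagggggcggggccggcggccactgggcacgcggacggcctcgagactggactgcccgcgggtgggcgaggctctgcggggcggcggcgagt
Nfil3, chr13:52980990-52981289, minus strand: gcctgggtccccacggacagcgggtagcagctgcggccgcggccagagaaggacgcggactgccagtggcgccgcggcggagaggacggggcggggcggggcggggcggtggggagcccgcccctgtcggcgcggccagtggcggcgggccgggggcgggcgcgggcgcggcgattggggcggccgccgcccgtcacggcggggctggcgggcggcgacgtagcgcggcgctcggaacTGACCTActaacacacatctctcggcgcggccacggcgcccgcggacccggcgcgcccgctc
Arntl, chr7:113207261-113207560, plus strand: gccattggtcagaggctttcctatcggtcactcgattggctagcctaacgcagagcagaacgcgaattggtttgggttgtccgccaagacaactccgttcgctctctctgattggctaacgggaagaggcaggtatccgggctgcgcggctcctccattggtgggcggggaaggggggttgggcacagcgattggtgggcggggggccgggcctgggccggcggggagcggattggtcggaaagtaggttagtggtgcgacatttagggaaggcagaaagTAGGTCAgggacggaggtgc
Npas2, chr1:39194022-39194321, plus strand: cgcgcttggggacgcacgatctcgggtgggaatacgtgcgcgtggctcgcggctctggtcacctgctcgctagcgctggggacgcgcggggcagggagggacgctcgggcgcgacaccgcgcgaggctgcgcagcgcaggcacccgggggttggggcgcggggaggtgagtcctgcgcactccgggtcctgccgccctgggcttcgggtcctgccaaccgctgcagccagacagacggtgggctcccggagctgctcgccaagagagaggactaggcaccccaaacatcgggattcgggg
Nr1d2, chr14:18239057-18239356, minus strand: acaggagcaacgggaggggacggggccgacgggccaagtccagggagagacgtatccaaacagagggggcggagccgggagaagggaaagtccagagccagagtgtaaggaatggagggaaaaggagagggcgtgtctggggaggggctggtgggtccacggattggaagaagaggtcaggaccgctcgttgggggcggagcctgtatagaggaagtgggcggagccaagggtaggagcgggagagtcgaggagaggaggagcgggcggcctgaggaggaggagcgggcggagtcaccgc

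Ciart holds 3 E-boxes, which begin 116, 58 and 44 bases before the start site. Per3 holds 2 D-boxes, 205 and 158 bases before it. Nfil3 holds a ROR element on the opposite strand 12 bases before its start, and the second Arntl promoter holds one 31 bases after it. None of the 4 patterns lies in the windows of Npas2 and Nr1d2. Over the first promoter of each of the 17 genes, 5 held an E-box, 2 a D-box, 1 a ROR element and 0 a glucocorticoid element, where 7.15%, 3.38%, 2.61% and 6.85% of all 32851 promoters do. These are matches of letters and not measured binding.

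Of 23 listed genes of excitation, contraction and calcium handling, 1 rose (background 0.132%) and 1 fell (background 0.25%). Mylk4, a muscle member of the myosin light chain kinase family, was at 786, 924 and 1006 CPM in the daily libraries and at 222, 259 and 515 CPM in the vehicle libraries. It rose by 1.45 (SE 0.25, adjusted p = 0.0429), with every daily library above every vehicle library. Mrln encodes myoregulin, a micropeptide that inhibits the calcium pump SERCA of the sarcoplasmic reticulum. It was at 38.6, 19.4 and 28.1 CPM against 74.1, 108 and 49.1 CPM and fell by 1.43 (SE 0.26, adjusted p = 0.0429). The other 21 of 23 calcium handling genes were not called, and the list's median was 0.14 (-0.01 without daily replicate 1). Stim1, the sensor of calcium stores, was at 182, 156 and 155 CPM against 127, 128 and 131 CPM, without overlap but with an adjusted p of 0.212, and Jsrp1, a protein of the junctional reticulum, differed by -0.50.

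No fast or slow fiber gene was called by edgeR. Of 12 fast fiber genes, 9 were lower on daily prednisone and the median was -0.34 (-0.16 without vehicle replicate 2 and -0.53 without daily replicate 1). Over all tested genes, 50.8% had a log2 fold change above 0. Pvalb, the calcium buffer parvalbumin, was at 10721, 8948 and 9462 CPM against 14518, 20830 and 13071 CPM, a difference of -0.73 (adjusted p = 0.0845), and Tnnc2, fast troponin C, differed by -0.72 (adjusted p = 0.0986). Both passed in DESeq2 (background 1.8% for falls in DESeq2). Of 10 slow fiber genes, 9 were higher, with a median of 0.55, yet their summed levels of 131.5 to 239.9 CPM on daily prednisone and 119.3 to 204.5 CPM on vehicle overlapped. That median was 1.17 without vehicle replicate 1, 0.19 without vehicle replicate 2 and -0.67 with the adipocyte score of each library, the mean log2 CPM of its adipocyte markers, as a covariate. The slow fiber genes were scarce and uneven between mice, as Myl2 shows at 3.38, 7.61 and 11.96 CPM against 2.79, 0.435 and 4.48 CPM. Among the giant proteins of the sarcomere, Neb was at 4211, 2855 and 3128 CPM against 2209, 1927 and 1771 CPM, and Ttn differed by 0.60. Neither passed, with adjusted p-values of 0.138 and 0.23.

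The most numerous group among the falls was the ribosome. Of 77 cytosolic ribosomal protein genes tested, 11 fell (background 0.25% for falls), all 77 were lower, and for 70 every daily library was below every vehicle library (background 10.2%). Their median was -0.57 against 0.01 over all genes, and DESeq2 called 61 of them lower (background 1.8%). Rps21 was at 73.2, 79.8 and 73.2 CPM on daily prednisone and at 125, 179 and 128 CPM on vehicle, and it fell by 0.93 (SE 0.17). Rpl37a was at 104, 104 and 98.9 CPM against 173, 242 and 167 CPM and fell by 0.92 (SE 0.16). Vehicle replicate 2 held the highest level of both genes, and also of the whole list, with 17810 CPM against 13910 and 13720 CPM in the other vehicle libraries and 9903 to 11450 CPM in the daily libraries. Without that mouse the list median was -0.44. Rps12, Rps15a, Rps23, Rps26, Rps27l, Rps29, Rpl34, Rpl35a and Rpl36a fell by 0.65 to 0.75. Counting names that begin with Rpl or Rps, 14 of the 34 falls were ribosomal, since Rplp1 and Rplp2, of the ribosomal stalk, and Rpl36al fell by 0.80, 0.72 and 0.90. Ribosomal protein genes have many near-identical pseudogenes, so their counts are uncertain where reads could go to either copy.

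Most of the genes that fell are short, and fold changes moved with length over the whole table. The median length of the genes that fell was 1990.5 bases and of those that rose 7207.5 bases, against 6256.5 bases for all tested genes. Over all tested genes the median log2 fold change went from -0.43 in the 118 genes of up to 500 bases to -0.36 in those of 500 to 1000 bases, -0.17 from 1000 to 2000, -0.05 from 2000 to 4000, -0.003 from 4000 to 8000 and 0.09 above 8000 bases. The males gave -0.46 and 0.15 at the ends. With the trend of each library on length and GC content removed, which was added after seeing the data, no gene was called in females and the smallest adjusted p was 0.0696. The ribosomal median was then -0.50.

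**Figure D3:**
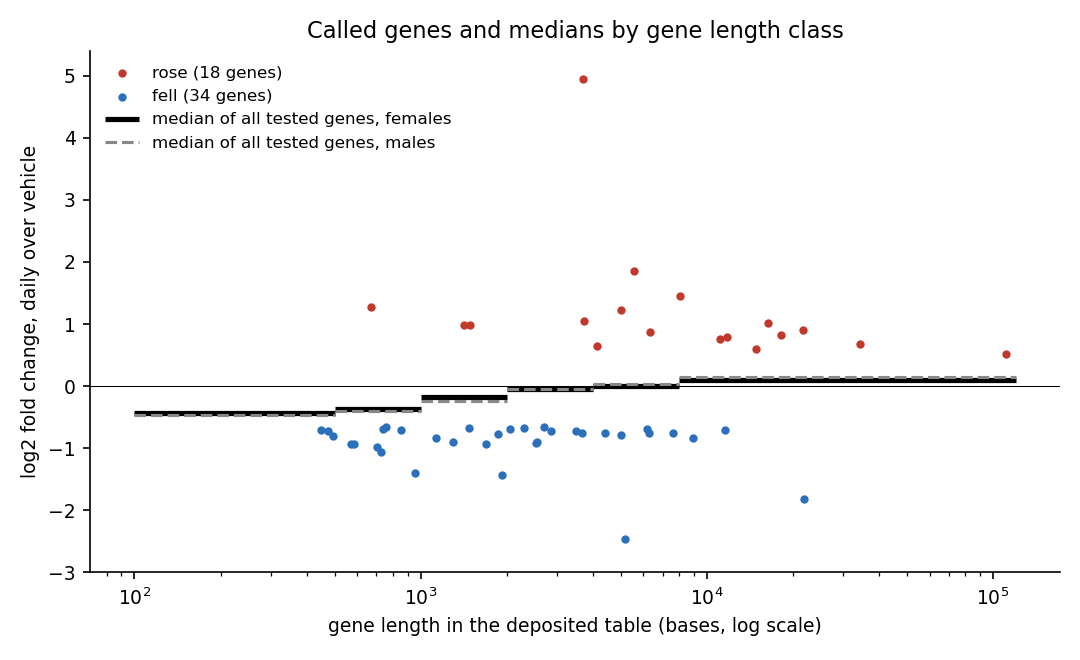
Log2 fold change against gene length on a log axis for the 18 genes that rose (red) and the 34 that fell (blue), with the median of all tested genes per length class in females (black) and males (dashed). The female median ran from -0.43 in the shortest class to 0.09 in the longest.

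Nuclear genes of the respiratory chain lay lower as well. Of 37 complex I subunits 35 were lower, with a median of -0.47. In edgeR 1 was called (background 0.25% for falls) and 22 had an unadjusted p under 0.05 (background 7.66% for lower). Ndufa2, an accessory subunit of complex I on chromosome 18, was at 79.4, 64.3 and 81.4 CPM against 132, 177 and 120 CPM and fell by 0.93 (SE 0.17, adjusted p = 0.0429). Of 40 subunits of complexes II to V 34 were lower, with a median of -0.38, and 1 was called (background 0.25% for falls). The one called was Atp5e, the epsilon subunit of ATP synthase, at 209, 145 and 171 CPM against 314, 403 and 275 CPM, which fell by 0.92 (SE 0.19, adjusted p = 0.047). Cox8b, Uqcr11, Ndufb7 and Ndufa5 differed by -0.67 to -0.78, without overlap between the groups and with adjusted p-values of 0.0722 to 0.0835. Outside the lists, Romo1 and Cox17, small mitochondrial proteins of the inner membrane and of copper delivery to cytochrome oxidase, fell by 0.77 and 0.76, and Fis1, an adaptor of mitochondrial fission, fell by 0.75. Among 76 mitochondrial ribosomal proteins 72 were lower, with a median of -0.31 (-0.19 without daily replicate 2) and none called. Mrpl52 came nearest at -0.76 (adjusted p = 0.0517).

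The 13 protein genes of the mitochondrial genome were all lower on daily prednisone and 12 did not overlap (background 10.2% for below), with a median of -0.88. With the adipocyte score as a covariate the median was -0.26. Their summed level was 113600, 155200 and 123100 CPM in the daily libraries and 235100, 234100 and 255200 CPM in the vehicle libraries, without overlap. Other groups spread widely, from 115900 to 374300 CPM in weekly females. In males the sums overlapped, at 152300 to 249600 CPM on daily prednisone and 179000 to 369100 CPM on vehicle. No one of the 13 genes passed in edgeR, and DESeq2 called 3 (background 1.8% for falls in DESeq2). mt-Nd3 was at 4.07, 5.03 and 5.56 CPM against 10.8, 15.2 and 10.2 CPM (adjusted p = 0.0598), and mt-Cytb was at 26574, 32288 and 25495 CPM against 49304, 51745 and 54629 CPM (adjusted p = 0.169). The RNA of the small mitochondrial ribosomal subunit, mt-Rnr1, was at 1182, 1146 and 1114 CPM against 3442, 3425 and 2231 CPM and fell by 1.40 (SE 0.26, adjusted p = 0.0429). In contrast, 17 of 21 genes of pyruvate oxidation and the TCA cycle were higher, with a median of 0.14. That median was 0.24 without daily replicate 2, 0.075 without daily replicate 1 and 0.073 without vehicle replicate 3. With the adipocyte score as a covariate it was -0.25. None of the 21 genes was called or had an unadjusted p under 0.05 in edgeR, among them the dehydrogenase subunit gene Dld at 0.39. The near-identical nuclear copies of mitochondrial sequence make these counts uncertain too.

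Genes of fat cells rose or lay higher. Lep, the hormone of adipocytes that reports fat stores, was at 2.84, 5.28 and 18.3 CPM on daily prednisone and at 0.339, 0 and 0.448 CPM on vehicle, or 424 counts against 9, and rose by 4.95 (SE 0.94, adjusted p = 0.0429). It passed the count filter only through the daily libraries. Of 10 adipocyte markers Lep alone was called (background 0.132% for rises), all 10 were higher (background 50.8%), 9 did not overlap (background 12.9% for above), and DESeq2 called 8 (background 2.15% for rises). Their median was 2.98. Adipoq, which encodes adiponectin, was at 62.4, 52.8 and 203 CPM against 8.81, 11.5 and 10.6 CPM, a difference of 3.37 with a standard error of 0.91 (adjusted p = 0.09). Plin1, the coat of the lipid droplet, was at 13.1, 42.2 and 143 CPM against 2.96, 3.37 and 5.19 CPM. Daily replicate 3 held the most of each of these genes, and without it the median of the markers was 2.196.

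The 4 brown adipocyte markers tested were also higher, and edgeR called 0 of them (background 0.132% for rises). Ucp1, the uncoupling protein of brown fat, had 7, 327 and 441 counts in the daily libraries and 0, 0 and 2 in the vehicle libraries. Pooled over the mice of each group, this is 274 times as much per scaled library. The exact conditional binomial 95% interval of 75.7 to 2268 covers counting error only and leaves out the spread between mice. Cidea, a lipid droplet protein of the same cells, was at 1.69, 15.2 and 32.1 CPM against 0.508, 0.217 and 0.179 CPM. Dio2, a deiodinase that is also expressed outside fat, was at 0.614, 4.22 and 3.75 CPM against 1.69, 0.543 and 1.88 CPM, so its groups overlapped. Summed over the 5 listed markers the daily libraries held 3.53, 43.4 and 66.0 CPM and the vehicle libraries 2.46, 1.195 and 2.78 CPM. The level was thus near that of vehicle in daily replicate 1 and far above it in the other two. Of these markers only Cidea and Dio2 were members of the comparison, Cidea through its daily libraries alone. Ucp1 and Otop1 reached 10 counts in only 2 of the 6 libraries and Elovl3 was not tested for low counts, so no median is given for the list. In bulk RNA, more fat cells in a sample and more of these transcripts per cell cannot be told apart.

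Lipid synthesis genes were higher along with these markers. All 15 were higher (background 50.8%), with a median of 1.43, and DESeq2 called 9 (background 2.15% for rises) although edgeR called none. Fasn, fatty acid synthase, was at 49.8, 465 and 1916 CPM against 28.1, 22.3 and 47.4 CPM, a difference of 4.63 with a standard error of 1.12 (adjusted p = 0.0753). Dgat2, the last step of triglyceride synthesis, was at 25.03, 63.5 and 185 CPM against 10.8, 7.06 and 10.4 CPM. Gpam, the first acyl transfer onto glycerol phosphate, was less spread at 81.9, 89.6 and 102 CPM against 39.4, 36.3 and 40.2 CPM, a difference of 1.24 (SE 0.28, adjusted p = 0.064). Srebf1, the transcription factor of this pathway, was at 44.8, 47.6 and 88.9 CPM against 27.4, 27.7 and 34.1 CPM. The order of the daily libraries was the same for Fasn, Dgat2, Plin1 and the summed adipocyte markers (1766, 2174 and 3924 CPM, against 904.6 to 1189 CPM on vehicle). Adipoq, given above, did not follow that order, and the cause of the shared order was not tested.

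For fatty acid uptake and oxidation, 24 of 29 genes were higher and 18 did not overlap (background 12.9% for above), with a median of 0.38 and none called. Cpt1b, the muscle carnitine acyltransferase that admits fatty acids to mitochondria, was at 26.7, 24.3 and 20.2 CPM against 14.9, 14.3 and 10.9 CPM, a difference of 0.83 (adjusted p = 0.176). Cpt2, its partner on the inner membrane, differed by 0.71, and Slc27a1, a fatty acid transporter, by 1.31. Here daily replicate 3 was not the highest for Cpt1b. With the adipocyte score of each library as a covariate the medians were -0.25 for uptake and oxidation and -0.08 for synthesis, 0.58 for the clock repressors and -0.48 for the ribosomal genes. Those of the mitochondrially encoded genes, endothelial markers and slow fiber genes were -0.26, 0.09 and -0.67, against -0.88, -0.51 and 0.55 without it. No gene was called in that fit.

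**Figure D4:**
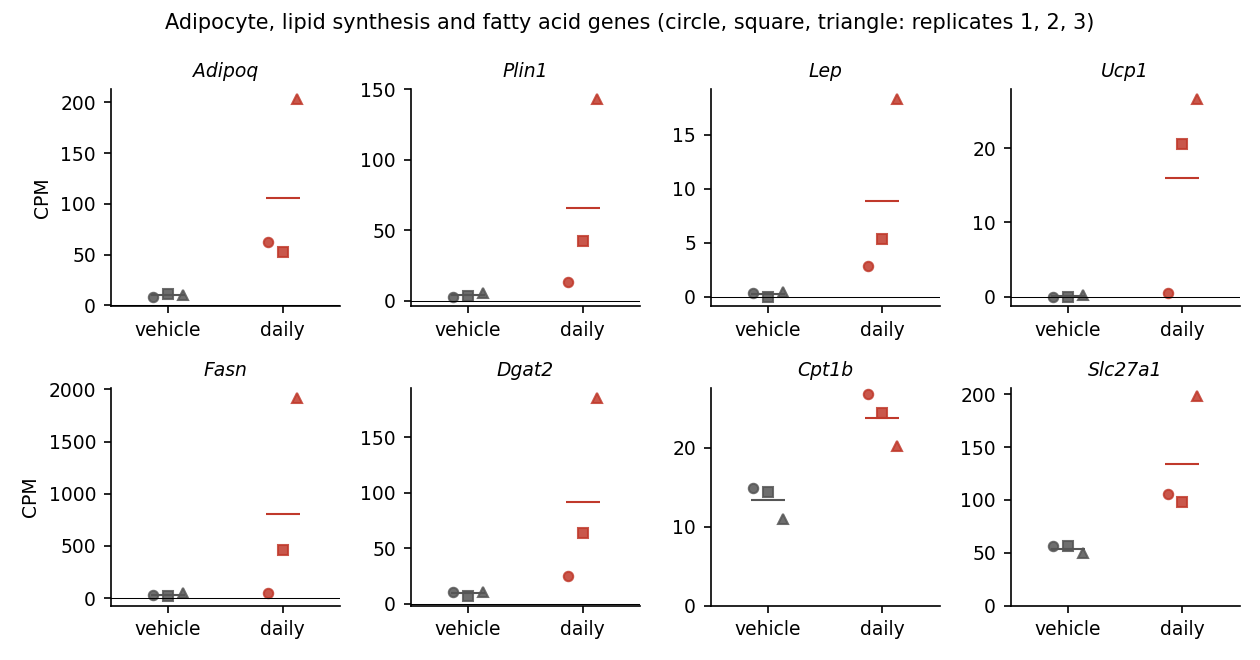
CPM of 8 genes of fat cells, lipid synthesis and fatty acid oxidation in the 3 vehicle (grey) and 3 daily (red) female libraries, with a line at each group mean. Daily replicate 3 (triangle) held the highest level of all but Cpt1b, for which it was the lowest daily library at 20.2 CPM.

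Listed targets of the glucocorticoid receptor had log2 fold changes from -0.35 to 1.02. Of 16 targets of the receptor none was called, 1 had an unadjusted p under 0.05, and the median was 0.09, which was 0.32 without daily replicate 1 and -0.115 without daily replicate 2. The one below 0.05 was Klf9, a transcription factor induced by the receptor in many tissues, at 150, 145 and 130 CPM against 93.7, 58.9 and 89.0 CPM, a difference of 0.81 (SE 0.19, adjusted p = 0.0635), and DESeq2 called it. Fkbp5, a cochaperone that restrains the receptor, was at 133, 132 and 83.7 CPM against 121, 105 and 25.8 CPM, a difference of 0.47 (SE 0.42). Tsc22d3, the glucocorticoid-induced leucine zipper, was at 234, 321 and 307 CPM against 272, 368 and 242 CPM, a difference of -0.03 with a standard error of 0.21.

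Atrophy genes were uneven among vehicle mice. Trim63, the ligase MuRF1, was at 674, 469 and 292 CPM on daily prednisone and at 1019, 1422 and 188 CPM on vehicle, and Fbxo32, the ligase atrogin-1, at 709, 403 and 279 CPM against 856, 1313 and 293 CPM. Vehicle replicate 3 was thus the lowest or near the lowest of all 6 libraries for both, and the differences of -0.87 (SE 0.53) and -0.82 (SE 0.43) had adjusted p-values of 0.416 and 0.347. They were -0.34 and -0.32 without vehicle replicate 2 and -1.34 and -1.22 without vehicle replicate 3, and Fbxo32 was -1.27 without daily replicate 1, with adjusted p-values of 0.104 or more. Of 15 genes in the list none was called and the median was 0.10 (0.23 without vehicle replicate 2, 0.19 without daily replicate 2, 0.035 without vehicle replicate 3). Fbxo30, a ligase known as MUSA1, was at 11.7, 17.9 and 17.6 CPM against 10.8, 10.3 and 10.03 CPM (adjusted p = 0.126), and Mstn, the growth inhibitor myostatin, was at 75.3, 48.8 and 51.9 CPM against 41.2, 43.4 and 24.9 CPM (adjusted p = 0.171).

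Of 25 genes of IGF1, insulin, PI3K and mTOR signalling, 7 had an unadjusted p under 0.05 and were higher (background 9.65%), none was called, and the median was 0.22 (0.10 without daily replicate 1). Mtor was at 42.9, 38.0 and 41.6 CPM against 34.0, 32.7 and 31.2 CPM (adjusted p = 0.114), and Irs1, the insulin receptor substrate, differed by 0.59 (adjusted p = 0.156). Proteasome subunits went the other way, with 28 of 31 lower and a median of -0.28 (-0.14 without vehicle replicate 2), among them Psmb6 at -0.50 (adjusted p = 0.116). Glycolysis genes had a median of -0.004, and Hk2, hexokinase 2, was at 193, 189 and 201 CPM against 128, 120 and 129 CPM, without overlap and with an adjusted p of 0.0831.

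The remaining rises include regulators of RNA and chromatin. Rbbp6, a ubiquitin ligase of mRNA 3′ end processing, was at 40.5, 57.7 and 46.2 CPM against 29.4, 18.5 and 23.7 CPM and rose by 1.01 (SE 0.15), and it was called in 3 of the 6 fits that left out a female library, more than any other gene. Ints6, a subunit of the Integrator complex, rose by 1.23, Tut4, which adds uridines to RNA ends, by 0.90, and Rbmx, a splicing factor, by 0.76. Usp34, Birc6 and Pds5a, of ubiquitin removal, ubiquitin conjugation and sister chromatid cohesion, rose by 0.67, 0.52 and 0.64. Gse1 and Sbno1, nuclear proteins linked to transcription, rose by 0.82 and 0.60, and Alg10b, a glucosyltransferase of the reticulum, by 1.05. Lrig1, a membrane protein that restrains growth factor receptors, was at 111, 98.1 and 86.0 CPM against 56.3, 61.6 and 53.5 CPM and rose by 0.78. Lcn2, the secreted lipocalin that binds bacterial siderophores, was at 4.68, 13.9 and 5.20 CPM against 2.03, 2.28 and 2.24 CPM and rose by 1.86 (SE 0.36), with daily replicate 2 the highest. Styx, a phosphatase relative without catalytic activity, rose by 1.28. The last 2 rises, 2900097C17Rik and ENSMUSG00000091089, are unnamed models.

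Falls outside the groups above include Plb1, a phospholipase, at 0.538, 0.566 and 0.483 CPM against 1.86, 2.28 and 1.52 CPM, which fell by 1.81 (SE 0.32). Plb1 was a member of the comparison only through its vehicle libraries, where it was high. Dhrs3, a reductase of retinal, was at 35.0, 36.5 and 30.2 CPM against 56.9, 77.6 and 46.4 CPM and fell by 0.83 (SE 0.16). Prr13, a proline-rich protein, fell by 0.79 and S100a16, a calcium-binding protein, by 0.75. The histone genes Hist1h4i and Hist1h2bc fell by 1.06 and 0.70, and both belong to a family of near-identical copies. Atp6v1f, of the proton pump of lysosomes, fell by 0.69, and Sem1, a small protein of the proteasome lid, by 0.67. Tmem256 fell by 0.72, and Gm12224 and 1810037I17Rik, which have no given name, by 0.91 and 0.84.

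Markers of other cells were counted in the same fit. Of 5 red blood cell genes 1 was called (background 0.25% for falls). Hbb-bt fell by 0.98 (SE 0.20, adjusted p = 0.0474), from 12.96, 9.56 and 13.5 CPM on vehicle to 5.30, 7.86 and 5.08 CPM. All 5 were lower, with summed levels of 68.0 to 88.6 CPM against 96.5 to 174.8 CPM. The globin genes are near-identical copies of each other. All 9 endothelial markers were lower, with a median of -0.51 and none called, and their sums of 850.9, 1354 and 848.7 CPM on daily prednisone reached into the vehicle range of 1319 to 1388 CPM. The 9 fibroblast and collagen genes were also all lower, with a median of -0.40 and sums of 1080 to 2634 CPM against 1719 to 3750 CPM. That median was -0.008 without vehicle replicate 3 and -0.08 without daily replicate 1. Macrophage markers had a median of 0.02, which was -0.20 without daily replicate 3 or vehicle replicate 2, although Cd68, a lysosomal protein of macrophages, was at 3.46, 7.42 and 4.23 CPM against 2.54, 1.74 and 2.69 CPM (adjusted p = 0.0832). Lymphocyte and neutrophil markers summed to at most 2.28 CPM in any of the 6 libraries. The part of these cells in the results above was not tested. The adipocyte covariate cannot separate fat cell content from treatment, because more fat cells and more marker transcripts per cell cannot be told apart. Its slope came from spread within groups over all 18 libraries, and the summed markers did not overlap between daily and vehicle females. Those sums were 1766 to 3924 CPM on daily prednisone and 904.6 to 1189 CPM on vehicle.

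**Figure D5:**
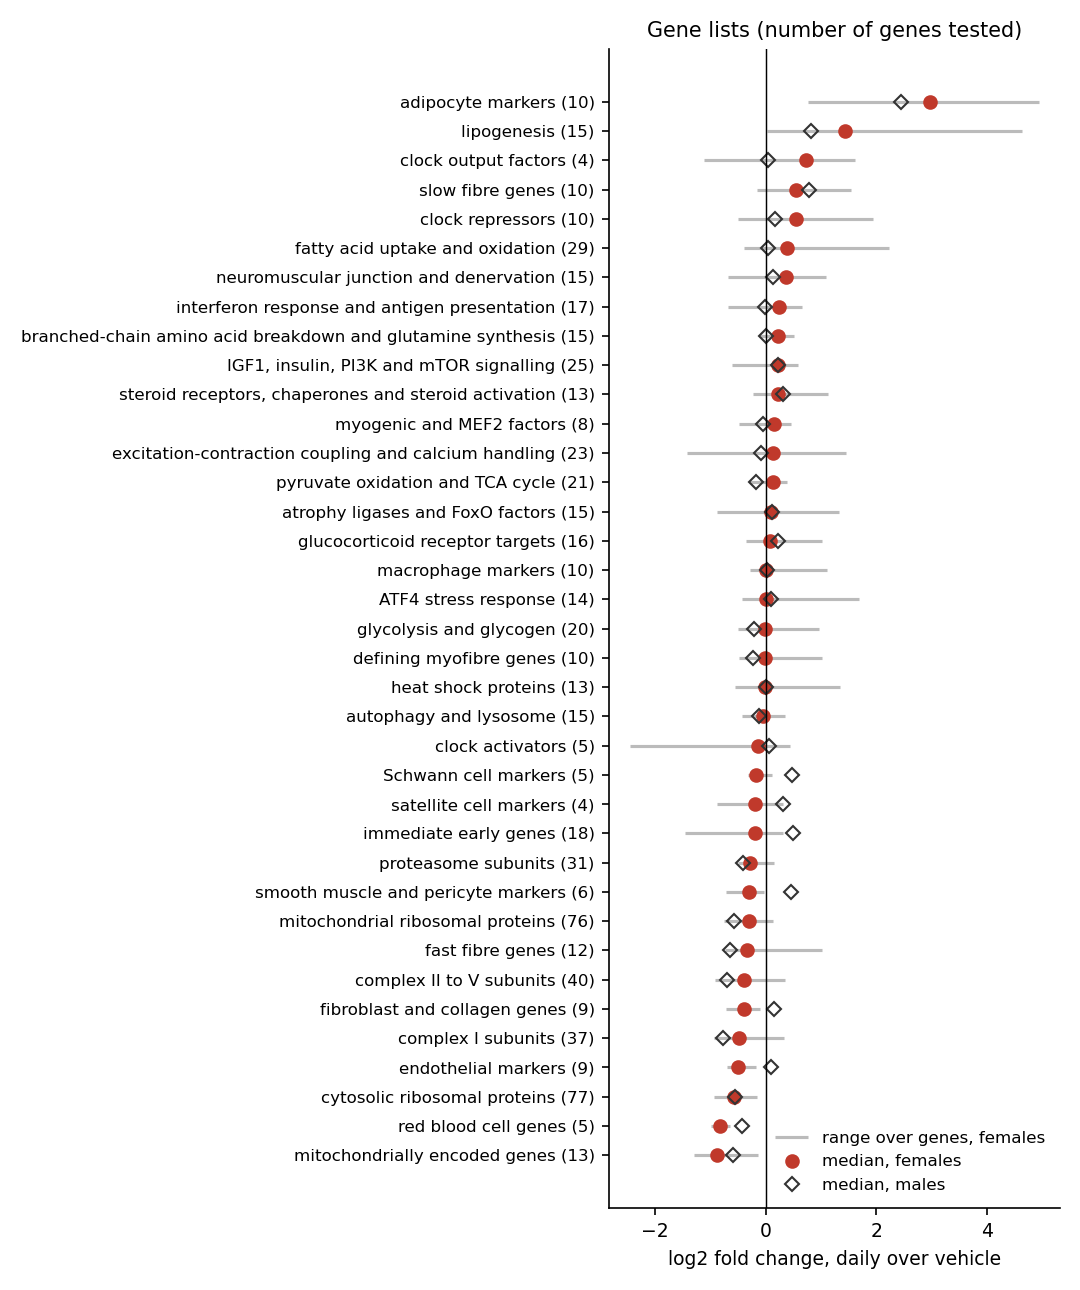
Median log2 fold change of the gene lists with at least 4 genes tested, brown adipocyte markers left out, for daily prednisone over vehicle in females (red) and in males (diamonds), with the range over genes in females (grey) and the number of genes tested in brackets. Of the lists drawn, the female medians ran from -0.88 for the mitochondrially encoded genes to 2.98 for the adipocyte markers.

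The male mice received the same daily dose and give the closest comparison. edgeR called 878 genes in males (6.46%), of which rises made up 2.07% of tested genes and falls 4.38%, and 11 of the 18 female rises and 28 of the 34 female falls were called in males in the same direction. The ribosomal median was -0.55 in males and that of complex I -0.76. The difference between the female and the male response was tested directly, and no gene passed, with a smallest adjusted p of 0.771 and 638 genes (4.69%) at an unadjusted p under 0.05. DESeq2 called 2 genes for this difference, Pim1 and Stmn2, which are named after their values were seen. Pim1, a kinase induced by cytokines, was at 31.5, 21.1 and 38.9 CPM in daily females and at 83.1, 76.6 and 72.2 CPM in vehicle females, but at 72.9, 84.9 and 97.2 CPM in daily males and 79.3, 52.1 and 33.6 CPM in vehicle males. Stmn2, a regulator of microtubules known from neurons, was at 3.99, 5.10 and 3.99 CPM against 9.15, 10.97 and 12.5 CPM in females and at 7.44, 11.2 and 8.91 CPM against 4.13, 5.30 and 8.02 CPM in males.

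Of the 52 genes called in females, 13 were not called in males and 8 had an unadjusted p under 0.05 for the difference of the responses, all with adjusted p-values of 0.771 or more. For Npas2 the male libraries were at 3.75, 5.22 and 2.06 CPM on daily prednisone and at 4.13, 4.71 and 5.52 CPM on vehicle, and the responses differed by -2.10 (SE 0.51, adjusted p = 0.889). Mylk4 was at 1059, 695 and 857 CPM in daily males and at 837, 862 and 690 CPM in vehicle males, so that vehicle males overlapped with daily females, and the responses differed by 1.32 (SE 0.35, adjusted p = 0.889). Without female vehicle replicate 3 that difference was 1.77 with an adjusted p of 0.0472. Lep was at 1.32, 1.26 and 1.17 CPM in daily males and spread from 0.263 to 2.85 CPM in vehicle males. The adipocyte markers as a list were higher in males too, with a male median of 2.46 and none called. Of these 10 markers, 9 had the same sign in both sexes. Their sums were 1118 to 2104 CPM in daily males and 567 to 869.9 CPM in vehicle males. Dhrs3 differed between the responses by -0.997 (SE 0.22, adjusted p = 0.771).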

How the data were processed

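RNA was sequenced from isolated quadriceps myofibers. The deposited values are whole-number counts of reads per gene without normalization, which the authors made by aligning reads to mm10 and counting them. The submitters' processing notes list TopHat2 2.1.0, Bowtie2 2.2.6, HTSeq, mm10 and mm9. The strand setting and annotation release are not given in the sources used here, so overlapping and antisense genes are uncertain. Dose, age and duration come from the study's methods. Of 43430 identifiers, 968 had no symbol in GENCODE release 21 and took at most 0.0814% of a library's counts. No 2 libraries of a group agreed within sampling noise.

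The analysis used R 4.3.3 and edgeR 4.0.16, with filterByExpr at a minimum count of 10, TMM scaling, and a robust quasi-likelihood fit of 6 group means over 18 libraries. Contrasts were daily minus vehicle in females and its difference from males. The p-values were adjusted by Benjamini-Hochberg over 13596 genes, with 0.05 as the limit for a call. Standard errors were derived from the fold change and the F statistic. The common dispersion corresponded to a biological coefficient of variation of 0.224, and log2 fold changes had a median standard error of 0.23. The adipocyte score is the mean log2 CPM of the adipocyte markers with a prior count of 2. The promoter search and figures used Python. The steps were tested on simulated data.

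Members and gene lists were chosen with earlier results of these data known. Named with values were called genes without overlap, up to 15 rises and 15 falls by size and without unnamed models, called list members, up to 4 members per list with the smallest p, and all listed clock genes, Trim63, Fbxo32, Fkbp5, Tsc22d3 and Lep. Some genes that meet this rule are not reported here. Called genes beyond these limits, and Pim1 and Stmn2, were named after their values were seen. Alternatives were DESeq2 1.42.0, its size factors, limma-voom (limma 3.58.1), other filters, the compared groups alone, a replicate block, the adipocyte covariate, a fold threshold of 1.2, and leaving out single libraries. Removal of length and GC trends with splines of 5 degrees of freedom was added after seeing the data.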

Additional observations from a re-analysis of the deposited data

Results flagged for a closer look

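Ciart was the one clock gene among those named whose libraries separated in opposite directions in the sexes. Its log2 fold change of daily prednisone over vehicle was 1.78 in females, where all daily libraries lay above all vehicle libraries, and -0.55 in males, where daily libraries at 2.23, 2.2005 and 1.96 CPM lay below vehicle libraries at 3.16, 3.73 and 2.499 CPM. The responses differed by 2.33 (SE 0.67), with an unadjusted p in edgeR of 0.0029 and an adjusted p of 0.889. Over all tested genes, 53 separated in opposite directions in this way.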

How the results depend on the processing

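The number of genes called for daily prednisone against vehicle in females rested on p-values near the limit, with a median standard error of 0.23 on the log2 scale. Against 52 genes with all libraries, the count was 526 with DESeq2, 29 without a filter on low counts, and 0 in a fit of only the compared groups, with the adipocyte score as a covariate, with a fold threshold of 1.2, or with length and GC trends removed. In these 4 fits the smallest adjusted p-values were 0.0528, 0.624, 0.134 and 0.0696. DESeq2 size factors gave 54 genes, limma-voom 52 (47 shared with edgeR), a stricter filter 76 (all 52 among them) and a filter on the 6 female libraries 63. Leaving out a single female or male library gave between 0 and 173 genes. A called gene passed in at most 3 of the 6 fits that left out a female library. For the difference between the sexes the count was 0 in every fit except DESeq2, with 2 genes, and the fits without a single library, with 0 to 1. The cause of these changes was not tested. The shift of all genes was small, with a median log2 fold change of 0.01.

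The replicate numbers are those of the sample titles, and no pairing of mice is stated. The deviations of same-numbered daily and vehicle females correlated at 0.034, -0.318 and 0.279. The codes of the count columns number the libraries differently. By those codes daily replicate 1 matches vehicle replicate 2, at a correlation of 0.395, and daily replicate 3 matches vehicle replicate 3. A block by those codes was not tested. With the replicate number as a block within sex, 0 genes were called, with a smallest adjusted p of 0.0621. The median of the slow fiber genes was then 1.37.

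With the adipocyte score as a covariate, the log2 fold change turned to -0.139 for Adipoq, -0.391 for Plin1, -0.053 for Cpt2, -0.536 for Slc27a1, -0.248 for Dld, 0.049 for Bhlhe40 and -0.896 for Myl2. Adipoq and Plin1 are part of that score. Values near 0 also changed sign. Without single libraries, Bhlhe40 ranged from -0.427 to 0.005 and Tsc22d3 from -0.141 to 0.159. Tsc22d3 was at 0.003 without a filter on low counts. No other gene named in the text by the rule changed direction in any alternative.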
